A study of Gasterosteus aculeatus with 227 samples.

Results

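The nuclear genes of the respiratory chain were followed in liver, brain and gills of threespine stickleback (Gasterosteus aculeatus), a small fish in which males carry an X and a Y chromosome and females 2 X chromosomes. Members were the listed genes whose names begin with the symbols of complex I (nduf with a, b, c, s or v), complex II (sdh with a to d), complex III (uqcr), complex IV (cox4 to cox8) or ATP synthase (atp5), with ndufa9a left out, which gave 70 of the 25994 listed genes. They comprised 35 complex I subunits, 8 complex I assembly factors (ndufaf1 to ndufaf8), 3 genes of the ndufa4 family, 3 complex II subunits (sdha, sdhb and sdhc), 4 complex II assembly factors (sdhaf1 to sdhaf4), 16 ATP synthase subunits and the ATP synthase inhibitor atp5if1b. No row with a uqcr, cox or sdhd name was among them. A further 23 chain genes, which the tables list under gene numbers and a gene name table identifies, are described apart as the numbered genes: 9 of complex III, 12 of complex IV, and ndufs1 and ndufb1 of complex I. Those 23 were chosen after the row names were seen.

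The respiratory chain sits in the inner mitochondrial membrane. Complex I takes electrons from NADH and complex II from succinate. Complex III passes them by way of cytochrome c to complex IV, which reduces oxygen, and the protons pumped on the way drive ATP synthase. Mitochondrial DNA encodes a small core of these complexes other than complex II, and the nucleus encodes all other subunits and the factors that assemble them. Some subunits exist as several isoforms from separate genes, and fish carry additional copies from the genome duplication of their ancestor.

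Wild, untreated fish were caught during reproduction, and sex was the variable under study. The 227 libraries came from 80 fish and were made with a 3′ kit that gives about 1 fragment per transcript, so that levels are compared between genes in counts per 1000000 counts of the library (CPM) without correction for length. The 6 groups were female liver, male liver, female brain, male brain, female gills and male gills, in which 35, 32, 38, 39, 36 and 36 libraries held at least 1000000 counts, with totals of 4351992 to 28095335. Another 11 libraries, 10 of them from liver, held 8829 to 432259 counts and entered only a named alternative. In 7 of the libraries at that depth a sex marker was unusual for the label. Y-chromosome genes were below 0.5 of the male median in 1 male brain, 1 male gill and 2 male liver libraries. The yolk precursor vtg3 was low in 3 female livers (15.2, 40.4 and 167 CPM). These female livers were marked by vtg3 alone, so that leaving them out selects females by vtg3 level. All 7 are called libraries with a label in doubt, although low vtg3 alone does not show a wrong label, and they stayed in unless stated. The marked male brain and male gill libraries came from 1 fish. The 2 marked male livers also had vtg3 at 5395 and 11575 CPM, while the gill libraries of their fish were not marked. The tissue labels matched the marker genes: 9 of 9 brain markers were higher in brain than in gills and in brain than in liver, 6 of 6 liver markers were higher in liver than in either other tissue, and 5 of 6 gill markers were higher in gills than in brain. Separate fish stand behind the libraries of 1 tissue. In whole tissue, fewer cells of a type and less RNA per cell cannot be told apart.

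The summed level of all members in liver ran from 4983 to 10361 CPM in females with a median of 6856, and from 4165 to 12562 CPM in males with a median of 8754. In brain the female libraries ranged from 6777 to 15087 CPM with a median of 8794, and the male libraries from 7143 to 16183 CPM with a median of 10342. Gills had medians of 10934 CPM in females, within 6498 to 14370, and 10750 CPM in males, within 4449 to 13732. All 6 groups overlapped, and the liver medians were below those of the other tissues in both sexes. The 50 largest genes of each tissue took 57.7% of the counts in female liver and 47.4% in male liver, against 14.9% and 14.8% in brain and 19.6% and 20.5% in gills. With these genes taken out of the total, liver moved from the lowest to the highest place, and gills stayed above brain. The median summed level became 16785 CPM in female liver and 16472 CPM in male liver, 10281 and 11974 CPM in female and male brain, and 13409 and 13128 CPM in female and male gills. A liver level in CPM therefore depends on what the total holds. Calls in liver were compared under 3 scalings: TMM (the scaling of edgeR), the size factors of DESeq2, and library totals alone. Fold changes are under TMM where no other scaling is named, and not every value is shown under all 3.

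**Figure D1:**
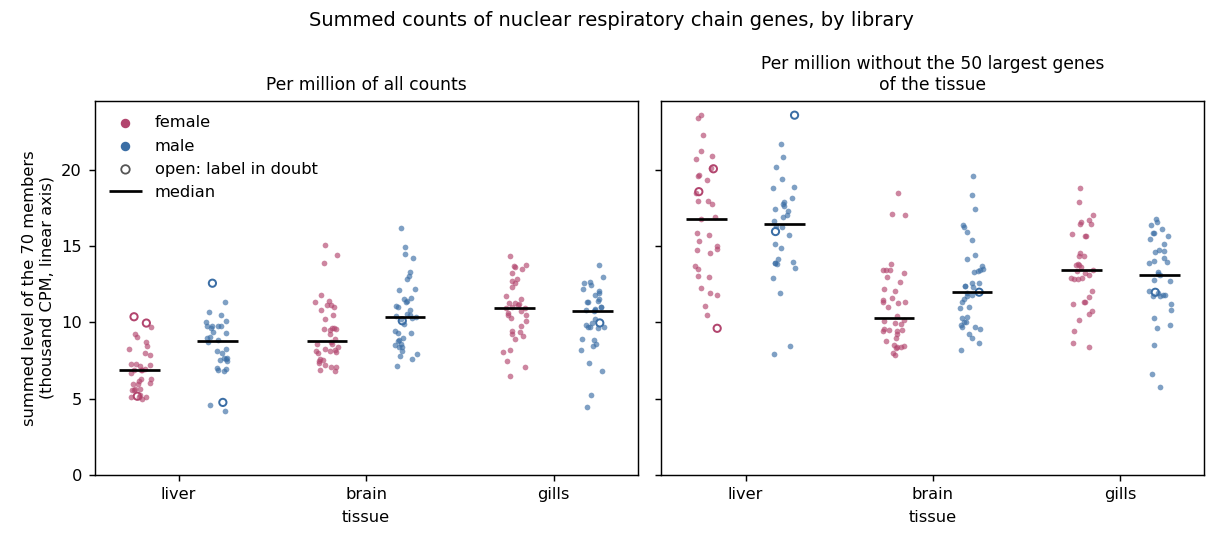
Summed level of the 70 members in units of 1000 CPM, 1 point per library, by tissue and sex, with all counts as the denominator (left) and with the 50 largest genes of the tissue taken out of it (right). Bars are medians. Liver has the lowest medians on the left (6856 CPM in females, 8754 in males) and the highest on the right (16785 and 16472).

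Individual members differed widely in level. Among ATP synthase genes, atp5l (subunit g), atp5mj (a small membrane proteolipid) and atp5mf (subunit f) were the most abundant, with means over the 3 tissues of 590, 581 and 576 CPM. The alpha subunit atp5fa1 averaged 20.3 CPM and the delta subunit atp5f1d 107 CPM, whereas the beta subunit atp5f1b, which binds alpha in the catalytic head, averaged 357 CPM. Complex I was led by ndufa2 with 323 CPM, ndufb7 with 153 CPM and ndufb5 with 144 CPM, all accessory subunits. Its lowest member with counts besides ndufb3 (0.849 CPM) was the assembly factor ndufaf7 with 2.72 CPM. In complex II, sdhc (a membrane anchor) averaged 132 CPM, sdha (the flavoprotein that oxidises succinate) 80.7 CPM, sdhaf2 (which helps attach the flavin to sdha) 66.6 CPM, sdhb (the iron-sulfur subunit) 27.2 CPM, sdhaf3 8.10 CPM and sdhaf1 5.63 CPM. The counted levels thus differed between subunits of 1 complex that work side by side. The annotation used for counting is not given in the sources used here, and its part in these differences was not tested. No count fell on atp5pf or ndufa7 in any library, and with ndufb3 they were the 3 members below 1 CPM in every tissue. Of the 70 members, 68 passed the filter on low counts in the fit of all groups and in the brain fit, 67 in gills and 65 in liver. The coefficient of variation between libraries of 1 group had a median over members of 27.1% to 35.1%.

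In CPM, 34 of the 67 members above 1 CPM in some tissue had the order gills over brain over liver, and 22 had brain over gills over liver. Of the 67, 7 had their highest median in liver, and 56 had their lowest there.

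**Figure D2:**
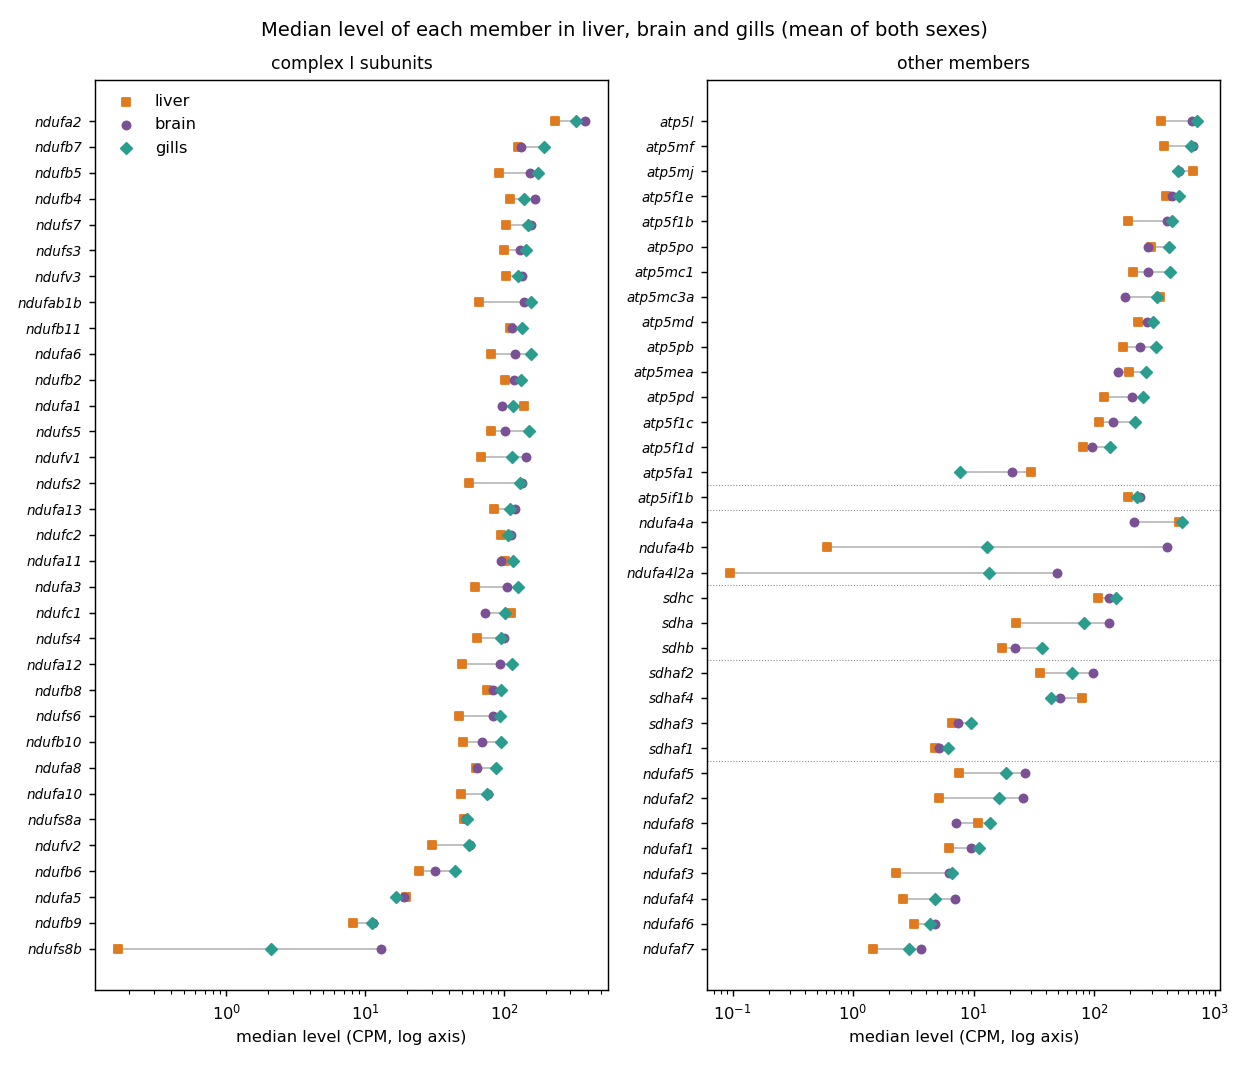
Median level in CPM on a log axis of the 67 members above 1 CPM in some tissue, as the mean of the female and male medians, for liver, brain and gills. ndufa4b, ndufa4l2a and ndufs8b stand out by their low liver values.

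The ndufa4 family held the member with the largest difference between brain and gills, ndufa4b. Its human counterpart was first assigned to complex I and is now placed in cytochrome c oxidase, and human NDUFA4L2 is known as a gene induced by low oxygen. ndufa4b had 0, 0.669 and 5.66 CPM (lowest, median, highest) in female liver and 0.0824, 0.548 and 22.4 CPM in male liver. The same gene had 35.2, 373 and 1007 CPM in female brain and 56.3, 432 and 891 CPM in male brain, against 2.12, 13.3 and 79.5 CPM in female gills and 0.441, 12.8 and 96.7 CPM in male gills. Liver and brain did not overlap, while gills lay between them with an overlap with both. The log2 difference of brain over gills was 4.72 (SE 0.22, edgeR adjusted p = 1.51e-54), with the higher value in brain in 69 of 69 fish. Liver against brain gave −6.43 (SE 0.25, edgeR adjusted p = 9.92e-66), lower in liver in 63 of 64 fish after TMM scaling and in 64 of 64 by library totals, the scale of the CPM values above, and liver against gills −1.71 (SE 0.21, edgeR adjusted p = 1.8e-13), lower in 56 of 62 fish.

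The paralog ndufa4l2a was also highest in brain, with medians of 45.8 CPM in females and 55.4 CPM in males, against 11.8 and 14.4 CPM in gills. Its liver medians of 0.105 CPM in females and 0.0842 CPM in males lay below the value that 3 counts give (0.238 to 0.307 CPM in a library of median size), and 13 of 35 female and 12 of 32 male livers had no count. Brain exceeded gills by 1.78 on the log2 scale (SE 0.12, edgeR adjusted p = 4.48e-35; 67 of 69 fish). Being near the detection limit in liver, it gets no liver fold here, and it was lower in liver than in brain in 64 of 64 fish and than in gills in 62 of 62.

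The third copy, ndufa4a, followed another order. It had 189, 325 and 1078 CPM in female liver and 250, 727 and 1294 CPM in male liver, against 125, 203.8 and 410 CPM in female brain and 126, 227 and 393 CPM in male brain. In gills it had 86.0, 483 and 1094 CPM in females and 92.5, 571 and 926 CPM in males. Brain was lower than gills by −1.21 (SE 0.10, edgeR adjusted p = 1.5e-24; 65 of 69 fish), and liver was higher than brain by 3.08 (SE 0.11, edgeR adjusted p = 6.08e-73; 64 of 64 fish under TMM, and 58 of 64 with library totals alone, where the difference was 1.18).

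Shares within the family do not depend on scaling. ndufa4a made up 99.5% of family counts in female liver and 99.7% in male liver, 33.0% and 31.7% in female and male brain, and 92.9% and 94.1% in female and male gills. ndufa4b took 59.6% in female brain and 60.1% in male brain, against 3.50% and 2.46% in gills. In 36 of 38 female and 37 of 39 male brains it held over 50% of the family. With the shallow liver libraries added, the mean ndufa4b share of liver became 2.87% in females and 4.84% in males, against 0.434% and 0.292% without them.

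A second split between paralogs concerned ndufs8, an iron-sulfur subunit of the complex I arm that hands electrons to ubiquinone. ndufs8b had 2.24, 13.7 and 25.4 CPM in female brain and 1.75, 12.6 and 36.0 CPM in male brain, against medians of 2.05 CPM in female gills and 2.14 CPM in male gills. Brain exceeded gills by 2.24 (SE 0.16, edgeR adjusted p = 1.53e-32) in 68 of 69 fish. Liver medians of 0.106 CPM in females and 0.237 CPM in males were below the detection limit. Its partner ndufs8a was near 50 CPM in every tissue, with medians of 53.7 and 47.5 CPM in female and male liver, 51.2 and 54.4 CPM in brain, and 54.8 and 52.1 CPM in gills. Brain against gills gave −0.02 for ndufs8a (SE 0.12, edgeR adjusted p = 0.858). The b copy thus formed 21.1% of the pair in female brain and 19.3% in male brain, 5.35% and 5.87% in gills, and 0.408% and 0.796% in liver. How reads of such close copies were assigned is not given in the sources used here, so that each copy's level is uncertain to that extent.

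**Figure D3:**
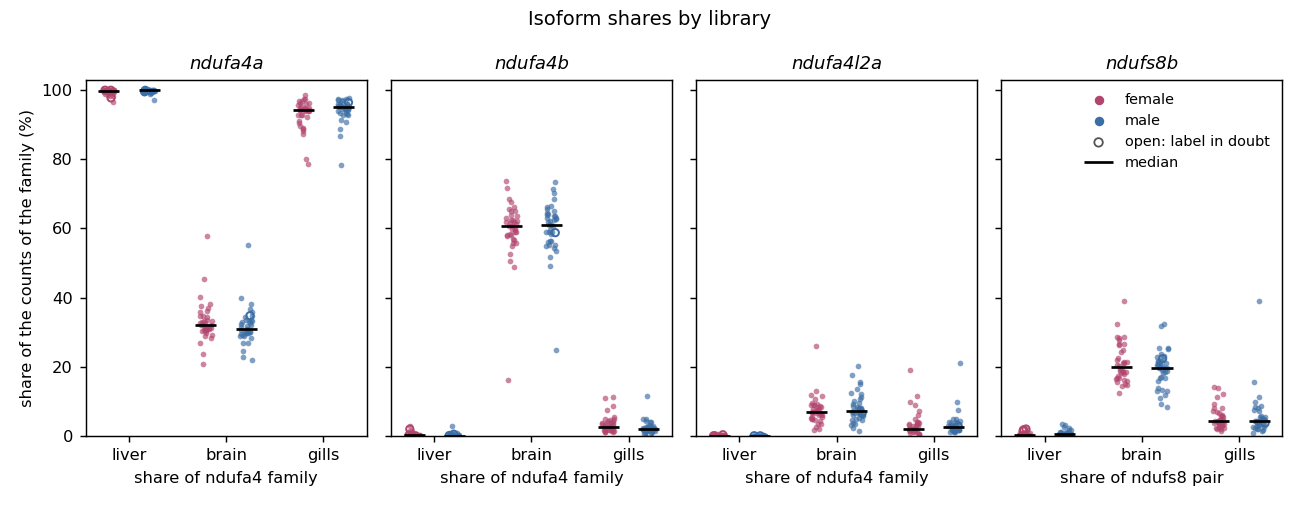
Share of the counts of a gene family held by 1 copy in each library, in percent, by tissue and sex. Bars are medians and open circles are libraries with a label in doubt. ndufa4b and ndufs8b have their highest shares in brain, and ndufa4a holds nearly all family counts in liver.

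Between brain and gills, 41 of the 68 tested members differed, 15 higher in brain and 26 lower, when 85.6% of all tested genes were called (42% higher, 43.6% lower). A share of 60.3% was thus called among the members, below that of all genes. The split between directions depended on scaling: with DESeq2's size factors 27 were higher and 16 lower (47.1% and 38.3% of all genes), and the median member difference was 0.11 in place of −0.09. Under all 3 scalings 15 remained higher and 16 lower, and the share of all genes that did so is not given. Under TMM alone, ATP synthase subunits were mostly lower in brain (9 of 15, with 1 higher), and complex I subunits had 4 higher and 12 lower of 34. Complex I assembly factors had 5 higher and 2 lower of 8. These counts by complex are not given for the other scalings.

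Besides the paralogs, the largest differences of brain over gills were atp5fa1 at 1.52 (SE 0.11, edgeR adjusted p = 5.28e-31; higher in 67 of 69 fish) and sdha at 0.72 (SE 0.07, edgeR adjusted p = 4.61e-19; 62 of 69). sdha had medians of 126 and 137 CPM in female and male brain, against 84.2 and 80.3 CPM in gills. Its partner sdhb went the other way, at −0.88 (SE 0.08, edgeR adjusted p = 2.14e-23; lower in 66 of 69), with medians of 21.5 and 23.0 CPM in brain and 38.6 and 35.2 CPM in gills. The assembly factor ndufaf8 was lower in brain by −0.98 (61 of 69 fish), the c-ring gene atp5mc3a by −0.77 (59 of 69) and atp5mea, subunit e, by −0.71 (61 of 69), with edgeR adjusted p-values of 9.89e-15, 3.01e-11 and 2.07e-09.

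Liver set against brain or gills gave opposite pictures under opposite scalings. Against brain, 62 of 68 members were higher and 5 lower under TMM, when 86.4% of all genes were called (39.3% higher, 47.1% lower). With library totals alone 9 were higher and 50 lower, when 12.2% and 81.1% of all genes were. Against gills, 63 members were higher and 3 lower under TMM, when 81.9% of all genes were called (36.6% higher, 45.2% lower), and 4 were higher and 57 lower with totals alone (8.97% and 85.2%). The median member lay above the median of all tested genes under each scaling: by 1.55, 1.54 and 1.43 on the log2 scale against brain under TMM, size factors and totals, and by 1.45, 1.42 and 1.27 against gills. Only 14 members kept a call in 1 direction against brain under all 3 scalings and 7 against gills, while 44 and 52 had opposite calls. The shares of all genes with kept or opposite calls are not given, so that these counts do not set the members apart.

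The members that kept their call against brain were the following. Lower in liver were ndufa4b, ndufa4l2a, ndufs8b, sdha at −0.69 and the assembly factor ndufaf2 at −0.50. Higher in liver were ndufa4a, atp5mc3a at 2.79, ndufaf8 at 2.56, sdhaf4 at 2.51, atp5fa1 at 2.43, ndufc1 at 2.34, ndufa1 at 2.32, atp5mj at 2.28 and atp5mea at 2.19, all under TMM. Against gills, atp5fa1 at 3.95, sdhaf4 at 2.78, atp5mj at 2.34 and ndufa1 at 2.14 stayed higher, and the 3 paralogs ndufa4b, ndufa4l2a and ndufs8b stayed lower. Among the members higher in liver than in gills, atp5fa1 had the largest difference under TMM: its median was 37.0 CPM in female liver and 21.8 CPM in male liver, against 8.77 CPM in female gills and 6.61 CPM in male gills, and the liver value was higher in 62 of 62 fish with either TMM or totals (edgeR adjusted p = 4.25e-83 under TMM). Its liver level was 2.04 above gills on the log2 scale with totals alone.

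In brain, 3 of 68 members were lower in females and 0 higher, when 7.22% of all genes were called (4.64% higher, 2.58% lower) and 1.67% of autosomal genes. All 69 members matched in the gene name table are autosomal. The unmatched member is ndufa4l2a, among the 3 called here, and its chromosome is not given. The beta subunit atp5f1b had 303, 377 and 488 CPM in females against 330, 427 and 626 CPM in males. The difference was −0.23 (SE 0.06, edgeR adjusted p = 0.00304), and 28 of 38 females lay below the male median. ndufa3, an accessory subunit of complex I, had 66.8, 96.4 and 144 CPM in females against 88.3, 110 and 166 CPM in males (−0.18, SE 0.06, edgeR adjusted p = 0.0345; 29 of 38 below). ndufa4l2a had 19.4, 45.8 and 75.5 CPM in females against 11.8, 55.4 and 93.7 CPM in males (−0.35, SE 0.11, edgeR adjusted p = 0.0377; 31 of 38 below), a call that voom with limma did not make. The female and male ranges overlapped for all 3. Of the members, 63 of 68 had a negative difference, with a median of −0.16 against −0.03 over all genes. An unadjusted p under 0.05 was found for 22 members, and for 2406 of 18392 tested genes. Of the 9 brain markers 2 were higher in females, mbpa at 0.32 and the X-linked slc1a2b at 1.43, and the other 7 did not pass, with a median of −0.02 over the 9. Their summed level, which includes slc1a2b, was 9115 to 14848 CPM in females (median 11942), against 6301 to 10765 CPM in males (median 8432). Whether this bears on the members was not tested.

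In gills, 1 of 67 members differed, when 13.5% of all genes did (6.02% higher, 7.45% lower). These shares include X-linked genes, and no share of autosomal genes is given for gills. atp5fa1 had 2.13, 8.77 and 14.5 CPM in females against 2.12, 6.61 and 12.9 CPM in males (0.41, SE 0.14, edgeR adjusted p = 0.0486; 27 of 36 females above the male median). This call was lost with DESeq2's size factors, with library totals and without the library with a label in doubt (adjusted p = 0.064, 0.072 and 0.0545). The members' median was 0.11, against 0.01 over all genes, and 57 of 67 were above 0. An unadjusted p under 0.05 was found for 3 members, and for 4334 of 17654 tested genes. Of the 6 gill markers, the X-linked cftr at 0.73 and krt18a.1 at 0.34 were higher in females. Of 8 tested brain markers slc1a2b was higher at 0.91, and snap25a at −1.03 and elavl4 at −0.64 were lower, with a summed level of 133 to 426 CPM in females, against 107 to 518 CPM in males. Of 5 tested liver markers apoa2 was lower at −1.16, with a summed level of 5.52 to 544 CPM in females (median 26.7), against 4.71 to 919 CPM in males (median 110.7). Of 14 striated muscle markers tnnt3a was higher at 0.70, with summed medians of 1974.5 CPM in females and 2158 CPM in males. Whether any of these bears on the members was not tested.

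In liver, 24 of 65 members differed between the sexes under TMM, 17 higher and 7 lower in females, when 39.2% of all genes were called (16.1% higher, 23.1% lower). The members' share of 36.9% was close to that of all genes. With library totals alone 3 were higher and 34 lower, when 7.56% and 50.5% of all genes were. The members' median was 0.11 against −0.12 over all genes under TMM, and −0.36 against −0.51 with totals. Under TMM, of 15 tested ATP synthase subunits 8 were higher and 1 lower, and of 32 complex I subunits 7 were higher and 2 lower. Of 8 complex I assembly factors 1 was higher and 0 lower. Of 3 complex II subunits 0 were higher and 1 lower, and of 4 complex II assembly factors 1 was higher and 1 lower. All 7 lower members kept their call under each scaling, as did 3 of the 17 higher ones: atp5fa1, atp5mc3a and ndufc1. Totals lowered the value of every tested member, so that they put only the higher calls at risk. Size factors called 2186 genes higher and 3094 lower over all genes, near the 2164 and 3107 of TMM. The same limit applies below to lower calls in female liver and to liver interactions below 0. The other liver genes moved too: under TMM all 6 liver markers were lower in females, by −0.76 (serpinc1) to −1.66 (hpxb). All 4 blood markers were lower as well, by −0.76 (slc4a1a) to −2.27 (tfr1a). In CPM, which uses library totals, the liver markers had a summed level of 6263 to 153865 in females (median 23796) against 18358 to 179271 in males (median 108286). The blood markers had medians of 19.7 CPM in females and 125 CPM in males. The part of both lists in the members' differences was not tested.

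The clearest lower member was atp5if1b, which binds ATP synthase and blocks it from running backwards and hydrolysing ATP. It had 62.7, 91.5 and 490 CPM in female liver against 69.6, 300 and 506 CPM in male liver. In females 33 of 35 livers lay below the male median, although the ranges overlapped from end to end. The difference was −0.90 under TMM (SE 0.16, edgeR adjusted p = 4.85e-06) and −1.26 with totals. Female livers gave it a share of 1.79% ± 0.904 of all member counts and male livers 3.53% ± 0.954 (SD, n = 35 and 32), a measure that needs no scaling. Without the 5 livers with a label in doubt the shares were 1.60% ± 0.659 and 3.69% ± 0.759 (SD, n = 32 and 30).

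The complex II genes that were lower were the assembly factor sdhaf4 and the iron-sulfur subunit sdhb. Another assembly factor, sdhaf3, was higher in females under TMM (0.64, SE 0.22, edgeR adjusted p = 0.0177; 25 of 35 above the male median), a call not kept under each scaling. sdhaf4, which assists the maturation of sdha, had 21.1, 43.04 and 195 CPM in females against 22.8, 122 and 318 CPM in males (−0.77, SE 0.20, edgeR adjusted p = 0.00124; 29 of 35 females below the male median). sdhb had 3.91, 11.6 and 29.1 CPM against 5.38, 23.4 and 43.4 CPM (−0.59, SE 0.14, edgeR adjusted p = 0.000278; 29 of 35). sdha itself, at medians of 18.2 CPM in females and 29.2 CPM in males, did not pass under TMM (−0.26, edgeR adjusted p = 0.0993).

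Among subunits of complex I, ndufa11, an accessory subunit of the membrane arm, had 33.0, 68.3 and 154 CPM in females against 66.4, 144 and 206 CPM in males (−0.50, SE 0.13, edgeR adjusted p = 0.000988; 30 of 35 below). ndufb10, of the same arm, had 11.3, 31.9 and 117 CPM against 17.9, 74.0 and 162 CPM (−0.52, SE 0.17, edgeR adjusted p = 0.0117; 29 of 35). ndufa4a was lower in females by −0.48 (SE 0.17, edgeR adjusted p = 0.0207; 25 of 35) and the c-ring gene atp5mc1 by −0.37 (SE 0.14, edgeR adjusted p = 0.0331; 29 of 35). With the 10 shallow livers added, these last 4 genes were no longer called (adjusted p = 0.177, 0.13, 0.361 and 0.441).

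The c ring of ATP synthase, the rotor that protons turn, is made from several genes that in mammals encode the same mature protein, and its 2 stickleback members moved in opposite directions. atp5mc3a had 210.8, 435 and 677 CPM in female liver against 75.2, 268.7 and 877 CPM in male liver (0.96, SE 0.19, edgeR adjusted p = 2.8e-05; 29 of 35 females above the male median), while atp5mc1 had 88.2, 156 and 496 CPM against 101, 295 and 490 CPM. atp5mc3a accounted for 70.1% ± 12.2 of the pair in females and 51.1% ± 10.4 in males. Without the livers with a label in doubt it accounted for 72.7% ± 8.26 and 50.1% ± 9.67. In brain the share was 39.0% in females and 39.7% in males, and in gills 43.3% and 41.5%.

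Also higher in female liver under each scaling were the alpha subunit of ATP synthase and a subunit of complex I. The alpha subunit atp5fa1 had 7.79, 37.0 and 78.9 CPM against 5.76, 21.8 and 56.5 CPM in males (1.08, SE 0.21, edgeR adjusted p = 1.82e-05; 0.65 with totals; 32 of 35 above). ndufc1, a small membrane-arm subunit of complex I, had 33.9, 123 and 237.7 CPM against 41.3, 102 and 171 CPM (0.85, SE 0.17, edgeR adjusted p = 2.7e-05; 0.41 with totals; 33 of 35 above under TMM and 25 with totals). The next members by p were atp5f1b (0.46, edgeR adjusted p = 0.00311; 31 of 35 above), ndufb8 (0.67, adjusted p = 0.0033; 27 of 35), atp5po, the stalk subunit OSCP (0.53, adjusted p = 0.00642; 29 of 35), atp5mea (0.56, adjusted p = 0.01; 22 of 35) and ndufs8a (0.55, adjusted p = 0.0119; 26 of 35). With totals alone these 5 differences were 0.01, 0.20, 0.08, 0.01 and 0.02, none of them called.

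**Figure D4:**
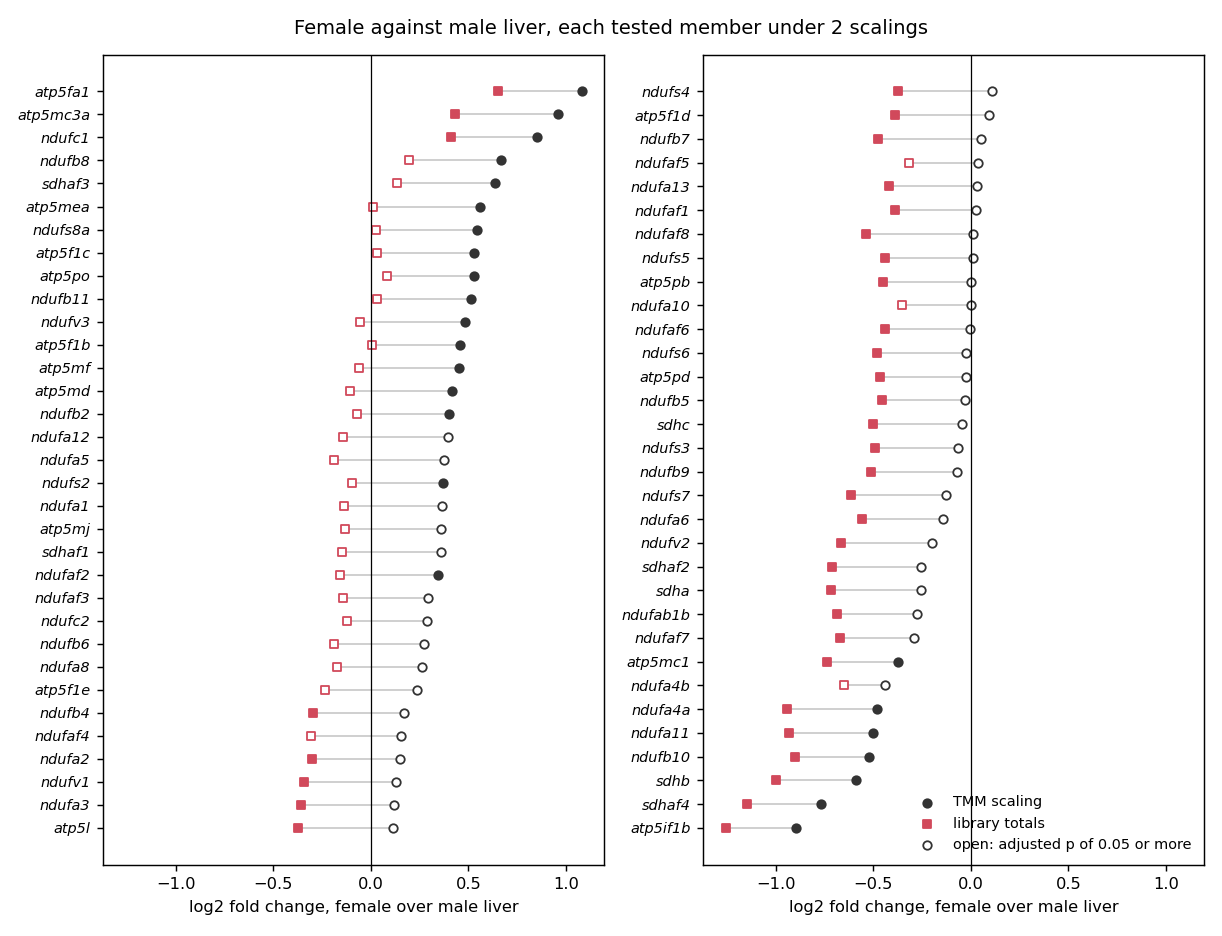
Log2 fold change, female over male liver, of each tested member under TMM scaling (dark circles) and library totals (red squares). Filled symbols have an adjusted p under 0.05. Totals move every member to the left, and 7 genes lower in females and 3 higher in females are called under both.

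Subunits of ATP synthase took 54.6% ± 3.65 of all member counts in female liver and 48.4% ± 3.49 in male liver (SD, n = 35 and 32). The share was 47.5% in females and 48.1% in males in brain, and 53.4% and 51.5% in gills. Complex I subunits took 34.6% and 34.7% in female and male liver, complex II subunits 1.81% and 2.25%, and the ndufa4 family 5.22% and 8.43%.

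The interaction of sex and tissue asks if the signed difference of females over males is the same in 1 tissue as in another. Each value is that difference in gills minus brain, liver minus brain, or liver minus gills. A value above 0 can come from opposite signs, and does not by itself show a larger gap between the sexes. Between gills and brain 0 of 68 members passed in edgeR, when 0.674% of all genes did (0.264% above 0, 0.409% below). All 68 differences were above 0, with a median of 0.27 against 0.02 over all genes. Of the members 15 had an unadjusted p under 0.05, when 2122 of 20039 tested genes did. Between liver and brain 18 members passed above 0 and 5 below, when 28.9% of all genes passed (9.97% above, 19.0% below), with 3 above and 5 below under each scaling. The 18 include ndufa4l2a, whose liver level was not resolved. With totals alone 3 were above and 19 below (4.99% and 39.8% of all genes). The 3 above 0 under each scaling were atp5mc3a at 1.07, atp5fa1 at 1.07 and ndufc1 at 0.99. Between liver and gills 4 passed above 0 and 9 below, when 29.9% of all genes passed (9.86% above, 20.0% below), and 0 above and 7 below under each scaling. The counts above and below 0 were 10 and 7 with DESeq2's size factors (11.9% and 15.4% of all genes), 9 and 11 without libraries with a label in doubt (11.8% and 24.1%), and 0 and 35 with totals alone (5.36% and 36.1%). The same liver libraries enter both tests, so that they are not independent.

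Of the 23 numbered genes, 5 were higher and 3 lower in female liver under TMM, when 16.1% and 23.1% of all genes were, and 0 and 10 with totals alone, when 7.56% and 50.5% were. All 23 are autosomal by the gene name table. In brain and gills 0 passed in edgeR, when 7.22% and 13.5% of all genes did (in brain 1.67% of autosomal genes). At an unadjusted p under 0.05 were 10 and 1, when 2406 of 18392 and 4334 of 17654 tested genes were. The 3 lower ones kept their call under each scaling, exceeded in size every sex difference among the members, and are isoforms of complex IV subunits whose use varies between tissues in mammals. cox6a2 had 17.5, 101 and 337 CPM in female liver against 90.3, 485 and 1082 CPM in male liver (−1.65, SE 0.20, edgeR adjusted p = 1.32e-10), and 35 of 35 females were below the male median. cox7a1 had 11.2, 24.3 and 113 CPM against 13.7, 101 and 277 CPM (−1.29, SE 0.19, edgeR adjusted p = 5.77e-08; 34 of 35). In mammals both are the heart and skeletal muscle forms. The striated muscle markers had a summed level of 4.14 to 20.7 CPM in female livers and 4.03 to 1270 CPM in male livers, with medians of 8.76 and 15.3 CPM and 4 of 6 tested markers lower in females. Of the 14 listed markers mylpfa had the highest median, 2.51 CPM in female and 3.29 CPM in male liver, and casq1a had no count in 23 of 35 female and 18 of 32 male livers. Their part in the cox6a2 and cox7a1 differences was not tested.

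cox4i2, whose mammalian counterpart is known from lung and from cells at low oxygen, had 0.49, 2.68 and 342 CPM in female liver against 1.61, 36.9 and 1085 CPM in male liver (−3.73, SE 0.65, edgeR adjusted p = 3.37e-06; 33 of 35 below). In males its share of the cox4 pair varied more, by its SD, than the shares of cox6a2 and cox7a1 in their pairs. That share was over 25% in 1 of 35 female and 11 of 32 male livers, and under 5% in 31 female and 12 male livers. The mean share was 2.44% ± 6.96 in females and 22.4% ± 25.7 in males, with medians of 0.62% and 8.72%. The female liver over 25%, at 40.1%, is 1 of those with a label in doubt, and without such libraries the female mean was 1.23% ± 2.34 and the male mean 23.8% ± 26.0. cox6a2 took 31.3% ± 17.1 of its pair with cox6a1 in female liver and 54.8% ± 16.2 in male liver. cox7a1 took 19.8% ± 10.9 and 40.6% ± 14.3 of its sum with cox7a2l. No gene named cox7a2 was among the numbered genes, so that the cox7a share covers only those 2 genes.

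**Figure D5:**
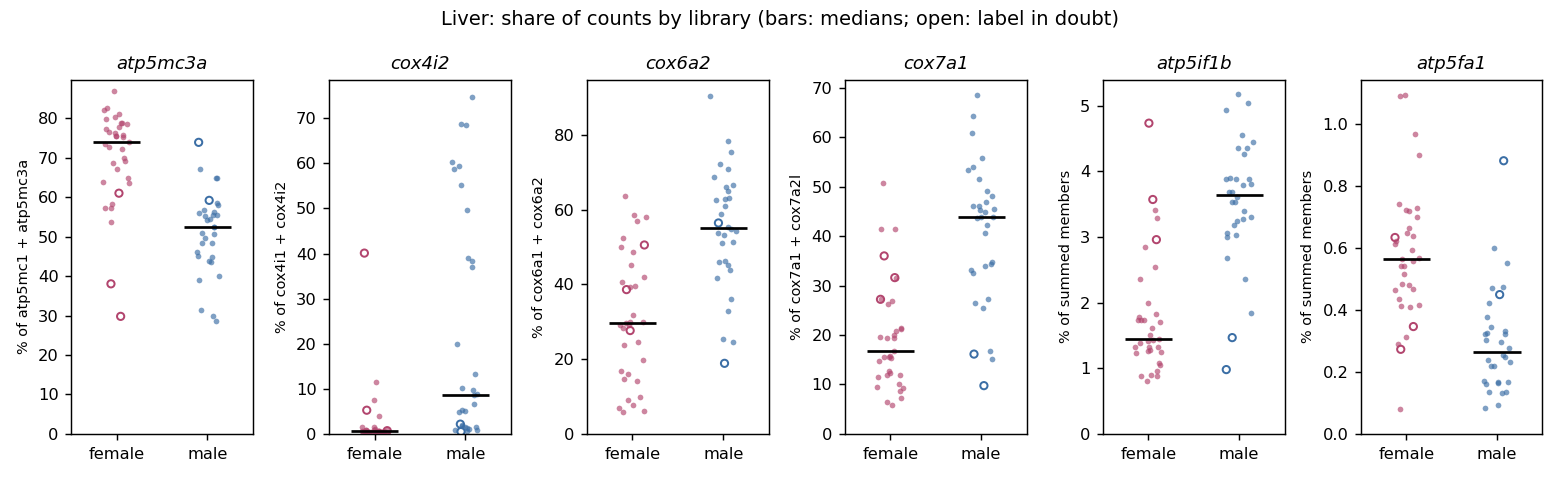
Liver only: share of counts held by 1 gene in each library, in percent, female left and male right. The first 4 panels give the share of the sum with 1 related gene (atp5mc1, cox4i1, cox6a1 and cox7a2l). The atp5if1b and atp5fa1 panels give the share of all member counts. Bars are medians and open circles are libraries with a label in doubt. Among the panels, cox4i2 is below 5% in 31 of 35 female livers and spreads up to 74.8% in male livers.

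Across tissues cox6a2 and cox7a1 were higher in liver than in brain by 6.79 (SE 0.15) and 6.67 (SE 0.20), in 64 of 64 fish each under TMM and with totals alone, with edgeR adjusted p-values of 2.26e-112 and 3.04e-85. Brain was lower than gills for both, by −2.50 (SE 0.12) and −3.50 (SE 0.18), in 69 of 69 fish each. cox4i2 was higher in brain than in gills by 2.30 (SE 0.25, edgeR adjusted p = 2.03e-16; 68 of 69). The complex III hinge protein uqcrh was higher in brain than in gills by 0.79 (SE 0.07, edgeR adjusted p = 3.76e-22; 63 of 69), and cox6b1 lower by −1.18 (SE 0.18, edgeR adjusted p = 1.18e-09; 63 of 69). In gills cox6a2 exceeded 25% of its pair in 3 of 36 female and 4 of 36 male libraries, up to 87.8%, and the summed striated muscle markers there ran from 631 to 6084 CPM in females and from 525 to 10632 CPM in males. Whether muscle RNA enters those shares was not tested.

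The chain core encoded by mitochondrial DNA, 13 genes, had a median summed level of 8758 CPM in female liver and 22264 CPM in male liver, 50097 and 57204 CPM in female and male brain, and 21145 and 25268 CPM in gills. The nuclear members summed to 6856 and 8754 CPM in female and male liver on the same scale. No test was run on these sums.

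Other genes of the pathway were read from 4 lists, with fold changes under TMM. Of 38 tested factors that assemble the chain, 7 were higher and 3 lower in female liver, a smaller share than the 39.2% called over all genes (16.1% higher, 23.1% lower). Of these, cox15 (heme a synthesis for complex IV) at 1.22 (SE 0.26, edgeR adjusted p = 0.000122), coa7 at −0.55, foxred1 at −0.56 and higd2a at −0.42 kept their call under each scaling. Of the 42 listed factors, not all of them tested in brain or gills, 1 was lower in brain (higd2a, −0.25). Of all tested genes 7.22% were called in brain, and 1.67% of autosomal genes. In gills 1 was higher (ttc19, 0.22, not called with totals), when 13.5% of all genes were called.

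Among the citric acid cycle genes reported here, mdh2 (malate dehydrogenase) was lower in female liver at −0.34, a call made under each scaling, and dldh was higher at 0.68 but was not called with totals. idh3a, which the gene name table places on the X, and dldh were higher in females in brain (0.89 and 0.86) and in gills (0.97 and 1.08).

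Of 17 regulators of mitochondrial biogenesis tested in liver, 2 were higher and 3 lower in females, again under the 39.2% of all genes, and each was called under all 3 scalings. esrra, a nuclear receptor that activates chain genes, stood at 1.47 (SE 0.16, edgeR adjusted p = 4.48e-12) and pprc1 at 1.26. ppargc1a, a coactivator that works through such receptors, stood at −0.72 (SE 0.24, edgeR adjusted p = 0.0121), tfb2m (a mitochondrial transcription factor) at −0.78 and yy1b at −0.34. In gills esrrb (−0.72, not called with totals) and tfb1m (−0.25) were lower in females, when 13.5% of all genes were called. They are among the 18 listed regulators, not all of them tested in gills. In brain 0 of 17 passed in edgeR, when 7.22% of all genes and 1.67% of autosomal genes did. Of the 17, 1 had an unadjusted p under 0.05 (2406 of 18392 tested genes).

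Among carriers of electrons and nucleotides, etfa, a subunit of the flavoprotein that brings in electrons from fatty acid oxidation, was higher in females in liver (1.22), brain (0.84) and gills (1.17), each under all 3 scalings. It has no match in the gene name table, so that its chromosome is not given here. In liver the ATP/ADP exchanger slc25a5 (−1.68, SE 0.31, edgeR adjusted p = 1.14e-05) and the proton carrier ucp1 (−1.46, SE 0.32, edgeR adjusted p = 0.000173) were lower under each scaling, and vdac2 (0.76) was higher except with totals. In gills cyc1, cytochrome c1 of complex III, stood at 0.34 and was not called with totals.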

How the data were processed

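RNA from liver, brain and gills was made into 3′ libraries with the QuantSeq FWD kit, per the labels' protocols. What the authors deposited for each tissue was a table of raw, unnormalised read counts by gene. The submitters' processing notes name fastp, STAR and HTSeq; their versions, the strand setting, annotation and genome build are not given in the sources used here. Reads in no gene (12.9%, 11.0% and 7.68% of brain, gill and liver reads) and reads overlapping several genes (4.33%, 3.83% and 4.03%) stayed out of totals and tests. Symbols and chromosomes came from the gene name table of assembly fGasAcu3.hap1.1, which matched 21014 of 25994 genes (80.8%), among them 69 of 70 members.

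Libraries with at least 1000000 counts were used, which left out 11 of 227. CPM is the count per 1000000 counts of the library. Within a tissue, females were set against males by edgeR's quasi-likelihood F test (edgeR 4.0.16, R 4.3.3) with TMM scaling, filterByExpr and robust fitting. Tissues and the interaction of sex and tissue were tested in 1 fit of all 6 groups. Log2 fold changes are female over male, brain over gills, and liver over brain or gills, with standard errors (SE) from the F statistic. P-values are two-sided and adjusted by the Benjamini-Hochberg method over all genes tested, and a gene under 0.05 was called. Alternatives were DESeq2's size factors, library totals alone, other filters, voom with limma 3.58.1, the same with the highest library of each gene at weight 0, DESeq2 1.42.0 (sex comparisons), all libraries, omission of libraries with a label in doubt, and blocks. The detection limit of 3 counts covers counting error only. The fits were also run on simulated independent libraries, with equal numbers of genes raised and lowered, and the outcome is not given here. Such data cannot test the gap between scalings in liver or the pairing of tissues within a fish.

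The members, gene lists, rules and tests were chosen with earlier results of these data known. Named were members past the threshold (at most 8 per direction and tissue), the 5 largest tissue differences per direction, the 5 interactions of smallest p, the 3 highest and lowest members of each complex, all copies in the shares, and called list genes. Counts of fish refer to fish with both tissues at depth. Tissues of 1 fish carry the same tag in the labels, which pairs them: deviations of brain and gills, liver and brain, and liver and gills of 1 fish correlated with medians of 0.117, 0.057 and 0.070. The planned search for promoter motifs was not run. A gene of the citric acid cycle list is not reported here.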

Additional observations from a re-analysis of the deposited data

Results flagged for a closer look

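The sex difference of 23 members in liver differed from that in brain, and that of 13 members differed from gills, by the interaction of sex and tissue, of 68 tested each. Of all tested genes 28.9% and 29.9% did. The 23 include ndufa4l2a, whose liver level was not resolved. In the comparison with brain the 5 members of smallest p were atp5if1b at −0.88, atp5f1b at 0.64, ndufc1 at 0.99, atp5fa1 at 1.07 and atp5mc3a at 1.07 (log2, female over male in liver minus the same in brain, TMM). All of them kept their call under the 3 scalings except atp5f1b, which stood at 0.23 with library totals alone (adjusted p = 0.1). In the comparison with gills they were atp5if1b at −0.93, sdhb at −0.84, ndufa11 at −0.68, sdhaf4 at −0.90 and ndufb10 at −0.76, each called under the 3 scalings.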

How the results depend on the processing

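Of the values of single named members under the alternatives, 503 kept their direction and side of the threshold, 29 kept their direction and lost the call, and 0 reversed. Over all 68 tested members, by contrast, 44 had opposite calls between scalings in liver against brain and 52 in liver against gills. The share of all genes with opposite calls is not given. Scaling moved the counts most. With library totals alone, 3 members were higher and 34 lower in female liver (median −0.36), 9 and 50 in liver against brain (median −0.48), 4 and 57 in liver against gills (median −0.57), 3 above and 19 below 0 in the interaction of liver and brain (median −0.20), and 0 above and 35 below in that of liver and gills (median −0.39). DESeq2's size factors gave 27 higher and 16 lower in brain against gills (median 0.11), and a median of 0.89 in liver against brain. Against gills they gave 5 members lower in liver (median 0.99), when 10749 of 20039 tested genes were lower. In the interaction of liver and gills they gave 10 above 0. The 1 gill call fell to 0 with size factors, totals, no filter, a mean of at least 1 CPM, voom with the highest library at weight 0, and without libraries with a label in doubt. voom left 11 members higher in female liver, when 2226 of 13447 tested genes were. With the highest library at weight 0 it left 10, when 2230 of 13447 genes were higher. In the interaction of liver and brain voom left 11 members above 0, when 2276 of 20039 genes were. All libraries together left 3 members lower in female liver, when 1971 of 13176 tested genes were. They left 3 below 0 in the interaction of liver and brain, when 2954 of 19925 genes were. The median in liver against gills was then 1.17. Without libraries with a label in doubt 9 stood above 0 in the interaction of liver and gills. The causes of these shifts were not tested, apart from the scaling itself. With the 50 largest genes out of the total, the summed levels were 16785 and 16472 CPM in female and male liver and 13409 and 13128 CPM in gills. The shallow livers moved mean shares in female and male liver to 96.6% and 95.0% for ndufa4a, 2.87% and 4.84% for ndufa4b, and 0.577% and 0.190% for ndufa4l2a.

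Females and males of the same replicate number carried different fish tags. Of their same-numbered pairs, 12 of 38, 12 of 36 and 12 of 29 in brain, gills and liver correlated above 0.1. Of pairs from 1 fish, 40 of 69 (brain and gills), 23 of 64 (liver and brain) and 25 of 62 (liver and gills) did. This mark therefore cannot show if same-numbered libraries are related. With the replicate number as a block, 8 members were higher in female liver and 0 in gills, when 1845 of 13447 and 916 of 17654 tested genes were. With the fish as a block, no count of tissue or interaction calls moved by over 1.5 times. Levels under about 0.3 CPM, as of ndufa4l2a and ndufs8b in liver, were not resolved at this depth.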
